A study of Arabidopsis thaliana with 2 samples.

Results

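Lignin, the phenolic polymer of xylem vessels and fibres, is made in 2 stages, and the 38 genes described here cover both. They are 15 enzymes of monolignol synthesis downstream of phenylalanine ammonia-lyase, 17 laccases (LAC1 to LAC17) and 6 class III peroxidases of lignified walls. They were chosen by locus from what their products are known to do, with earlier results of these data known. All 38 were among the 33602 loci of the expression table. The comparison was between the mature main stem of Arabidopsis thaliana plants labelled hdt1 mutant and that of wild-type (WT) plants, both collected 35 days after flowering from a greenhouse at 20 °C with 16 h of light and 8 h of dark. Each genotype has 1 library, made from total RNA. HDT1 (AT3G44750) encodes a plant-specific HD2-type histone deacetylase. The labels used here give neither the kind of mutation, nor the allele, nor how many plants went into a library.

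Monolignols are built in the cytosol. Cinnamate is hydroxylated, joined to coenzyme A, hydroxylated and methylated further on its ring, and then reduced to an aldehyde and an alcohol. The alcohols are exported to the wall, where copper-containing laccases (using oxygen) and haem-containing peroxidases (using hydrogen peroxide) oxidise them to radicals that couple into the polymer. In Arabidopsis stems the process is concentrated in xylem vessels, xylary fibres and the fibres between the vascular bundles.

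Values are FPKM, reads corrected for gene length and for library depth, and all levels below are on that scale. The libraries held 23070249 counted reads in hdt1 and 21728500 in WT, as read from the spacing of the values. A gene with no read in a library could still have an expected number of up to about 3 reads. At that depth 3 reads were worth 0.13 FPKM in hdt1 and 0.138 FPKM in WT for a gene of 1000 bases. HDT1 itself had 5.19 FPKM in hdt1 and 52.6 FPKM in WT, 10.2-fold lower in hdt1 (8.42 to 12.3), which fits the labels. With no replicates there was no test between genotypes. A range in parentheses after a fold is a 95% counting interval of the ratio of these 2 libraries, hdt1 over WT unless a fold is called lower. It leaves out all variation between plants and between library preparations, and PCR copies of a read are not independent molecules. For counts and medians the scale is log2(FPKM + 1), hdt1 minus WT, over genes whose mean of both libraries was at least 1 FPKM. That scale understates the differences of low genes.

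Transcripts of most lignin genes were more abundant in the hdt1 stem library than in the WT library. Of the 38 genes, 34 had reads in at least 1 library, and 30 of those 34 had the higher FPKM in hdt1. The 4 that were lower were 4CL3, CAD5, LAC1 and LAC15, of which LAC1 and LAC15 rest on at most 1 read per library. A mean of at least 1 FPKM was reached by 24 genes. Their log2 ratio was above 0 for 23 and below 0 for 1, with a median of 0.47, where 46% of all 17811 genes compared were above 0 and the median was -0.03. The 2-fold limit was passed upwards by 3 of the 24, CCR2, LAC4 and LAC12, against 2.32% of all genes. None passed it downwards, against 0.741% of all genes. The next gene below the limit was LAC17 at 0.98, and the last above it was LAC12 at 1.25. Both calls depend on the scale: LAC12 came to 0.59 with 5 FPKM added in place of 1, and LAC17 to 1.02 with equal library sums and 1.03 after centring. The counting interval lay above a ratio of 1 for 22 of the 24 and included 1 for CAD5 and LAC5, where 25.1% of all genes lay above and 29.5% below. In the ordered list of all genes, 14 of the 24 were among the top 10% of log2 ratios.

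**Figure D1:**
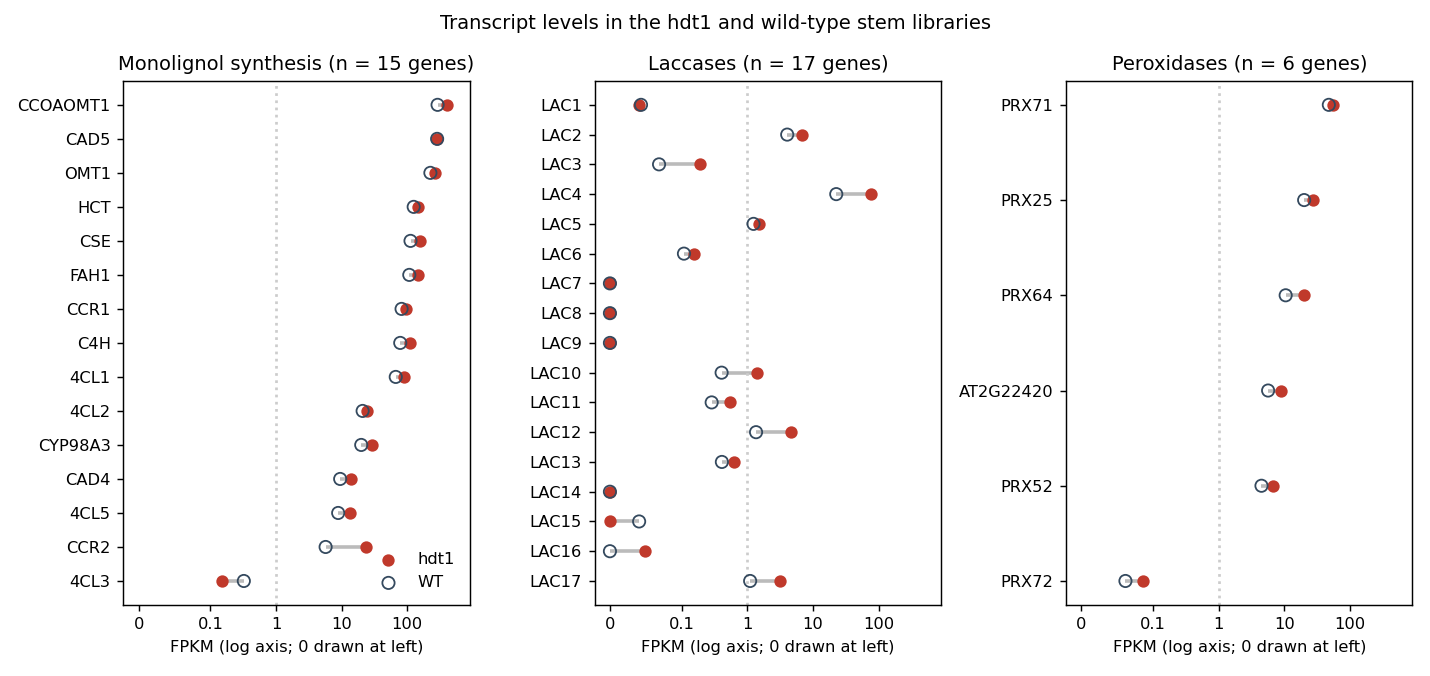
FPKM (log axis, 0 drawn at the left edge) of the 15 synthesis genes, 17 laccases and 6 peroxidases in the hdt1 library (filled) and the WT library (open), with 1 library per genotype and so no error bars. The filled points lie to the right for nearly all genes with reads, and the gaps are widest for CCR2 and for several laccases, while the CAD5 points coincide.

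The synthesis genes were the most abundant. They covered 0.152 to 405 FPKM in hdt1 and 0.322 to 291 FPKM in WT, and CCOAOMT1, CAD5 and OMT1 held the first 3 places in both libraries. Of the 15 genes, 14 reached a mean of 1 FPKM. The log2 ratio was above 0 for 13 of those and the median was 0.43. Leaving CCR2 aside, the folds of these genes ran from 0.996 to 1.51, a narrow band on the hdt1 side. In bulk tissue, more cells of a lignifying type and more RNA per cell cannot be told apart, and this holds for every level here.

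The genes of the entry steps were higher in hdt1, apart from 4CL3. C4H (AT2G30490), which hydroxylates cinnamate to p-coumarate, had 109 FPKM in hdt1 and 78.4 FPKM in WT, a fold of 1.39 (1.32 to 1.45). The 4CL enzymes then activate p-coumarate with coenzyme A. 4CL1 (AT1G51680) had 88.6 FPKM in hdt1 and 67.0 FPKM in WT, 1.32-fold (1.26 to 1.39). 4CL2 (AT3G21240) had 24.8 FPKM in hdt1 and 20.9 FPKM in WT, 1.18-fold (1.08 to 1.29). 4CL5 (AT3G21230), which can also activate sinapate, had 13.4 FPKM in hdt1 and 8.87 FPKM in WT, 1.51-fold (1.32 to 1.72). So the 3 4CL genes of phenylpropanoid supply to lignin were all higher in the hdt1 library, and their mix was nearly the same. 4CL1 made up 69.8% of 4CL FPKM in hdt1 and 69.0% in WT. 4CL3 (AT1G65060), which serves flavonoid synthesis, was close to the floor with 7 reads in hdt1 and 14 reads in WT, and its interval included 1 (0.471-fold, 0.161 to 1.25).

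The shikimate steps set the second ring hydroxyl. HCT (AT5G48930), which transfers the p-coumaroyl group to shikimate, had 144 FPKM in hdt1 and 126 FPKM in WT, 1.15-fold (1.1 to 1.19). CYP98A3 (AT2G40890), the hydroxylase that acts on that ester, had 29.0 FPKM in hdt1 and 19.9 FPKM in WT, 1.46-fold (1.33 to 1.59). CSE (AT1G52760), an esterase that releases caffeate from shikimate, had 154 FPKM in hdt1 and 112 FPKM in WT, 1.37-fold (1.31 to 1.44). The intervals of CYP98A3 and CSE lay above that of HCT, the gene with the smallest fold of these 3. CYP98A3 overlaps AT2G40880 on the opposite strand, which had 129 FPKM in hdt1 and 195 FPKM in WT. Its difference ran the other way, and the sources used here name no strand setting for the counting.

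The methylation and ring-hydroxylation genes were also higher in hdt1. CCOAOMT1 (AT4G34050), which methylates caffeoyl-CoA, was the most abundant of the 38 genes in both libraries, at 405 FPKM in hdt1 and 291 FPKM in WT, 1.39-fold (1.35 to 1.44). FAH1 (AT4G36220), the ferulate 5-hydroxylase that commits units to syringyl lignin, had 144 FPKM in hdt1 and 108 FPKM in WT, 1.34-fold (1.29 to 1.39). OMT1 (AT5G54160), the methyltransferase that follows it, had 270 FPKM in hdt1 and 226 FPKM in WT, 1.19-fold (1.16 to 1.23). CCOAOMT1 and FAH1 had the larger folds and their intervals lay above that of OMT1.

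The last reductions gave both the largest and the smallest fold of the 14 synthesis genes above the 1 FPKM filter. CCR2 (AT1G80820) is a cinnamoyl-CoA reductase known in Arabidopsis mainly for induction by pathogens. It had 23.2 FPKM (687 reads) in hdt1 and 5.70 FPKM (159 reads) in WT, 4.07-fold (3.42 to 4.87), and its log2 ratio of 1.85 stood in place 51 of all 17811 genes. CCR1 (AT1G15950), the reductase of developmental lignification, had 96.5 FPKM in hdt1 and 82.2 FPKM in WT, 1.17-fold (1.11 to 1.24). CCR1 remained the more abundant of the pair in both libraries, while CCR2 made up 19.4% of CCR FPKM in hdt1 and 6.49% in WT. Both overlap a gene on the opposite strand: AT1G80830, beside CCR2, had 69.8 FPKM in hdt1 and 56.9 FPKM in WT, 1.23-fold, a much smaller ratio than that of CCR2. AT1G15960, beside CCR1, had 6.09 FPKM in hdt1 and 5.23 FPKM in WT.

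Cinnamyl alcohol dehydrogenase, the final step, barely differed. CAD5 (AT4G34230), its main gene in these stems, had 285 FPKM (8583 reads) in hdt1 and 286 FPKM (8113 reads) in WT, a ratio of 0.996 (0.967 to 1.03). The log2 ratio of CAD5 was -0.01 on the values as deposited, 0.06 with both libraries scaled to equal sums and 0.05 after centring, so its sign depends on the scaling. CAD4 (AT3G19450), the less abundant partner, had 13.9 FPKM in hdt1 and 9.51 FPKM in WT, 1.47-fold (1.24 to 1.73). CAD4 supplied 4.66% of their joint FPKM in hdt1 and 3.21% in WT, so the sum followed CAD5. That sum was 299 FPKM in hdt1 and 296 FPKM in WT, 1.01-fold (0.982 to 1.04). Set against the CCR step before it, the fold of the CAD step was 0.743 times as large (0.700 to 0.787).

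**Figure D2:**
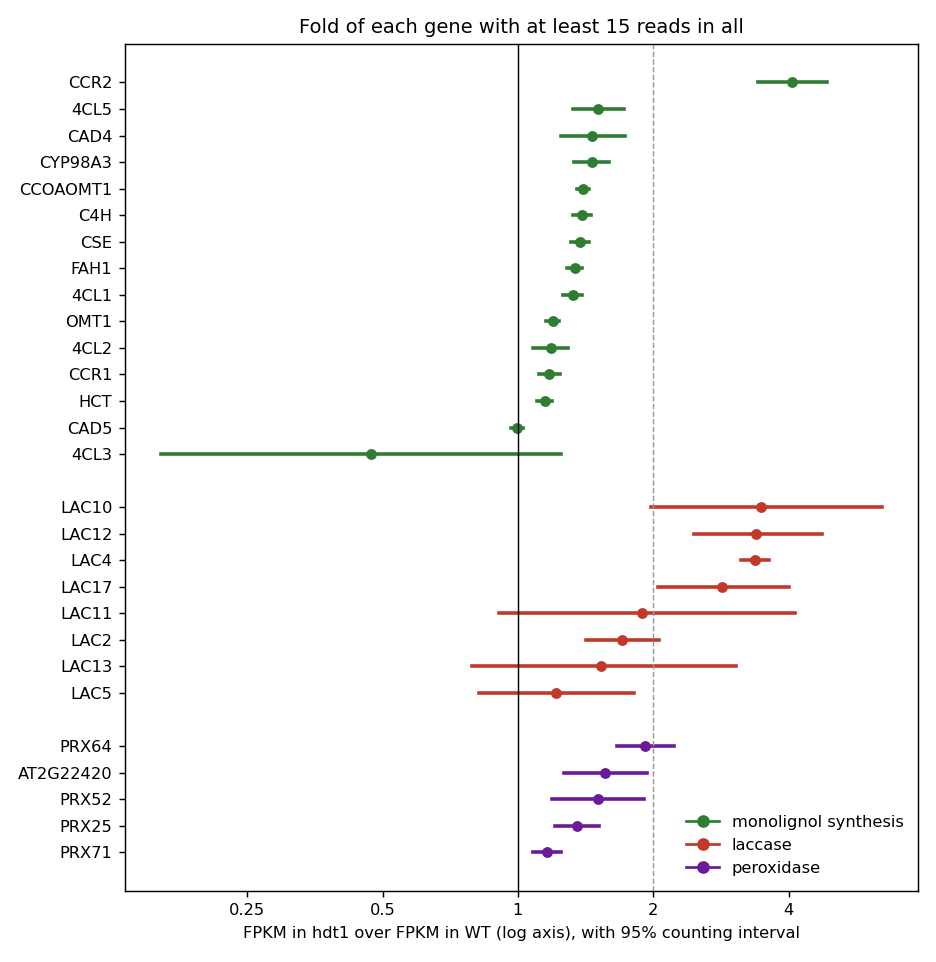
FPKM in hdt1 over FPKM in WT (log axis) for the 28 of the 38 genes with at least 15 reads in all, coloured by role, with lines for the 95% counting interval. The synthesis genes other than CCR2 and 4CL3 cluster between 0.996 and 1.51, and LAC4, LAC10, LAC12 and LAC17 lie beyond 2.

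The laccases differed most, and few of them carried the difference. Of 17 genes, 4 had no read in either library, and 13 had reads. The 4 were LAC7 (AT3G09220), LAC8 (AT5G01040), LAC9 (AT5G01050) and LAC14 (AT5G09360). Of those 13, 11 had the higher FPKM in hdt1. A mean of at least 1 FPKM was reached by 5, LAC2, LAC4, LAC5, LAC12 and LAC17, with a median log2 ratio of 0.98. Over all 17 genes the summed FPKM was 95.3 in hdt1 and 31.7 in WT, 3.01-fold (2.83 to 3.20).

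LAC4 (AT2G38080), also named IRX12, has a known role in lignification of stem vessels and fibres together with LAC17. It was by far the most abundant laccase, with 76.2 FPKM (3554 reads) in hdt1 and 22.7 FPKM (995 reads) in WT, 3.36-fold (3.13 to 3.61). Its log2 ratio of 1.71 stood in place 70 of all genes. LAC17 (AT5G60020) had 3.13 FPKM (148 reads) in hdt1 and 1.1 FPKM (49 reads) in WT, 2.84-fold (2.05 to 4.01). LAC4 thus had the narrower interval, and the intervals of the pair overlapped. LAC4 made up 80.0% of laccase FPKM in hdt1 and 71.5% in WT. The other 16 laccases together had 19.1 FPKM in hdt1 and 9.04 FPKM in WT, 2.11-fold (1.87 to 2.39), so the difference was not carried by LAC4 alone.

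LAC12 (AT5G05390) had 4.59 FPKM (180 reads) in hdt1 and 1.36 FPKM (50 reads) in WT, 3.39-fold (2.47 to 4.74). LAC2 (AT2G29130) had 6.91 FPKM (330 reads) in hdt1 and 4.05 FPKM (182 reads) in WT, 1.71-fold (1.42 to 2.06). LAC10 (AT5G01190) had 1.40 FPKM (59 reads) in hdt1 and 0.404 FPKM (16 reads) in WT, 3.47-fold (1.97 to 6.47), but its mean fell short of 1 FPKM. The interval of LAC2 lay below those of LAC4 and LAC12, so the laccases with many reads did not share a single fold. LAC5 (AT2G40370) had 1.51 FPKM (62 reads) in hdt1 and 1.24 FPKM (48 reads) in WT, and its interval included 1 (1.22-fold, 0.821 to 1.81). LAC11 (AT5G03260), which acts beside LAC4 and LAC17 in Arabidopsis lignification, had 0.537 FPKM (24 reads) in hdt1 and 0.285 FPKM (12 reads) in WT, 1.88-fold (0.906 to 4.13). LAC13 (AT5G07130) had 26 reads in hdt1 and 16 reads in WT, 1.53-fold (0.791 to 3.05). No difference was detected for LAC5, LAC11 or LAC13, and the LAC5 interval left out a 2-fold rise.

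The remaining laccases had few reads. LAC3 (AT2G30210) had 9 reads in hdt1 and 2 reads in WT, and LAC6 (AT2G46570) had 6 reads in hdt1 and 4 reads in WT. LAC1 (AT1G18140) had 1 read in hdt1 and 1 read in WT. LAC16 (AT5G58910) had its single read in hdt1. LAC15 (TT10, AT5G48100), known for oxidising flavonoids in the seed coat, had its single read in WT. All of their counting intervals included 1.

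**Figure D3:**
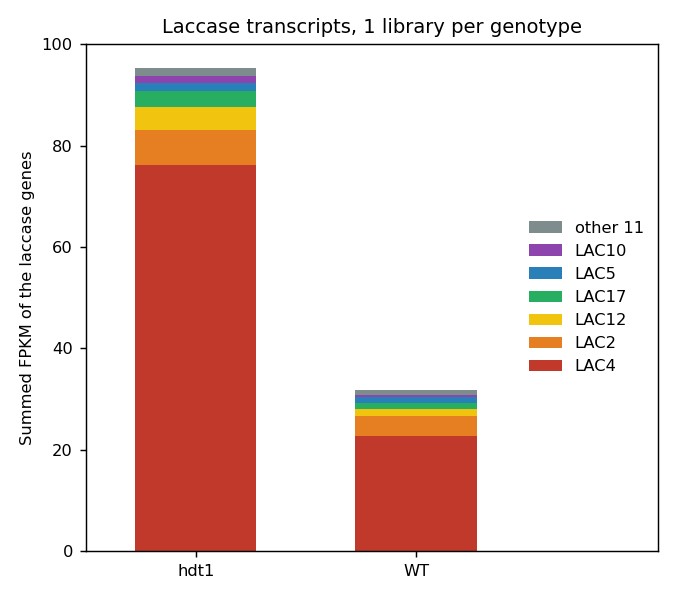
Summed FPKM of the 17 laccases in the hdt1 library (left bar) and the WT library (right bar), split by gene, with 11 low genes joined as 1 block and 1 library per bar. LAC4 fills most of both bars, and the sum is 95.3 FPKM in hdt1 and 31.7 FPKM in WT.

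Several laccase transcripts are known targets of microRNAs that are made when copper is scarce, and the sequences below show which members carry such a site. The mature sequences were read from the RefSeq annotation of TAIR10.1, miR397a at chr4:2625960-2625980 (plus strand), miR397b at chr4:7878730-7878750 (minus strand) and miR408-3p at chr2:19319933-19319953 (plus strand). Capitals mark the seed, bases 2 to 8. miR397a and miR397b share it.
miR397a: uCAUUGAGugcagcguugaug
miR397b: uCAUUGAGugcaucguugaug
miR408-3p: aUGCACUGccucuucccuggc

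A site was taken where the whole microRNA pairs with a penalty of at most 4, counting 1 for a mismatch and 0.5 for a G:U pair. The 5 sites below, written 5′ to 3′ as RNA from the TAIR10.1 transcripts, belong to the laccases with the most reads among those with a site, and to LAC3. Capitals mark the bases that pair by Watson-Crick rules with miR397a (LAC2, LAC4 and LAC17) or with miR408-3p (LAC3 and LAC12).
LAC2: aAUCAAuGCUGCACUCAAUGA
LAC4: agUCAACGCUGCACUuAAUGA
LAC17: aAUCAAuGCUGCACUuAAUGA
LAC12: GCCgGuGAAGAGGCuGUGCAa
LAC3: aCCAGuGAAGAGGCuGUGCAg

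All 5 lie in coding exons. The miR397a sites are in exon 5 of 6, of LAC2 at chr2:12526364-12526384 (minus strand, penalty 1.5), of LAC4 at chr2:15936120-15936140 (plus strand, penalty 2) and of LAC17 at chr5:24169068-24169088 (plus strand, penalty 2). The miR408-3p sites are in exon 2, of LAC12 at chr5:1594966-1594986 (plus strand, penalty 3.5) and of LAC3 at chr2:12889603-12889623 (minus strand, penalty 4). LAC16 also held a miR397a site, LAC6 a miR397b site and LAC13 a miR408-3p site within the limit. Of 31464 transcripts, 0.219% held a miR397a site at this limit, 0.283% a miR397b site and 0.0604% a miR408-3p site. For miR857, the other microRNA searched, no laccase held a site within the limit, against 0.423% of the transcripts. The lowest miR857 penalty was 4.5, for LAC8 and LAC10. A match of letters is a description and does not show that the microRNA acts there.

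The summed folds of laccases with a site rested on 1 gene each. The 5 with a miR397a or miR397b site summed to 86.4 FPKM in hdt1 and 27.9 FPKM in WT, 3.10-fold, and without LAC4 to 10.2 FPKM in hdt1 and 5.25 FPKM in WT, 1.95-fold. The 3 with a miR408-3p site summed to 5.41 FPKM in hdt1 and 1.81 FPKM in WT, 2.99-fold, and without LAC12 to 0.815 FPKM in hdt1 and 0.453 FPKM in WT, 1.80-fold. The 9 with neither, 4 of them without reads, summed to 3.47 FPKM in hdt1 and 1.98 FPKM in WT, 1.76-fold. The sum with neither site kept its own gene of large fold, LAC10, with 1.40 FPKM in hdt1 and 0.404 FPKM in WT, 3.47-fold. The sums without LAC4 or LAC12 are thus not a like comparison with it. A link between a site and the fold was not tested. The precursor loci gave 3 reads in hdt1 and 1 read in WT over the 4 loci of miR397a, miR397b, miR408 and miR857, with none for miR397a or miR408. Libraries of this kind do not measure mature microRNAs.

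The genes CSD1 and CSD2 encode copper/zinc superoxide dismutases. Their transcripts are known targets of miR398, another microRNA of copper shortage in Arabidopsis. Both genes were lower in hdt1. CSD1 had 221 FPKM in hdt1 and 412 FPKM in WT, 1.86-fold lower in hdt1 (1.80 to 1.94). CSD2 had 113 FPKM in hdt1 and 224 FPKM in WT, 1.98-fold lower in hdt1 (1.88 to 2.08). SPL7, the regulator of the copper response, had 12.3 FPKM in hdt1 and 13.6 FPKM in WT, 0.906-fold (0.822 to 0.999). The copper transporter gene COPT1 had 24.0 FPKM in hdt1 and 27.1 FPKM in WT, and its interval included 1 (0.885-fold, 0.774 to 1.01). All 4 of the 5 listed copper genes that reached a mean of 1 FPKM had a log2 ratio below 0, as had 9620 of all 17811 genes. The median of the 4 was -0.53, and none passed 2-fold. The larger differences were those of CSD1 and CSD2. A link of these levels to copper, to microRNAs or to the laccase folds was not tested.

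The peroxidases were higher in hdt1 by smaller folds. All 6 had the higher FPKM in hdt1, 5 reached a mean of 1 FPKM, none passed 2-fold, and the median log2 ratio was 0.50. PRX64 (PER64, AT5G42180), known in Arabidopsis from lignified fibres and the Casparian strip, had 20.1 FPKM (571 reads) in hdt1 and 10.5 FPKM (280 reads) in WT, 1.92-fold (1.66 to 2.22). It was the largest fold of the 6 among those with more than 3 reads. PRX64 overlaps AT5G42190 on the opposite strand, which had 131 FPKM in hdt1 and 132 FPKM in WT. AT2G22420, to which RefSeq gives no gene name, had 8.83 FPKM in hdt1 and 5.66 FPKM in WT, 1.56-fold (1.26 to 1.93). PRX52 (AT5G05340), known for lignin of the fibres between the bundles, had 6.74 FPKM in hdt1 and 4.48 FPKM in WT, 1.5-fold (1.19 to 1.91).

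The 2 most abundant peroxidases had the smallest folds. PRX25 (AT2G41480) had 27.1 FPKM in hdt1 and 20.1 FPKM in WT, 1.35-fold (1.21 to 1.51). PRX71 (AT5G64120), first in level in both libraries, had 55.4 FPKM in hdt1 and 47.7 FPKM in WT, 1.16-fold (1.08 to 1.25). Mutants of both genes are known for altered stem lignin. PRX72 (AT5G66390), also known for stem lignification, had only 2 reads in hdt1 and 1 read in WT. The intervals of PRX71 and PRX64 did not overlap, and PRX71 made up 46.8% of the peroxidase sum in hdt1 and 54.0% in WT.

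The rest of the class III peroxidase family was mixed. Of 64 further genes that the annotation describes as peroxidases of this family, 20 reached a mean of 1 FPKM, 13 of them above 0 and 7 below, with a median log2 ratio of 0.18. Of all genes compared, 46% were above 0. The counting interval lay above 1 for 8 and below 1 for 5, against 25.1% and 29.5% of all genes. On the log2(FPKM + 1) scale none was 2-fold higher in hdt1 and 3 were 2-fold lower, against 2.32% and 0.741% of all genes. Those 3 were AT5G19890, with 1.38 FPKM in hdt1 and 6.10 FPKM in WT, AT1G49570, with 0.488 FPKM in hdt1 and 3.35 FPKM in WT, and AT5G64100, with 0.524 FPKM in hdt1 and 2.45 FPKM in WT. On the FPKM themselves 3 were more than 2-fold higher in hdt1. AT5G58390 had 15.7 FPKM in hdt1 and 7.47 FPKM in WT, 2.1-fold (1.77 to 2.49), AT3G21770 had 4.13 FPKM in hdt1 and 1.97 FPKM in WT, 2.1-fold (1.5 to 2.96), and AT5G47000 had 1.87 FPKM in hdt1 and 0.596 FPKM in WT, 3.14-fold (1.83 to 5.65). On the FPKM themselves AT4G08780 was also more than 2-fold lower, with 0.666 FPKM in hdt1 and 1.41 FPKM in WT (0.471-fold, 0.241 to 0.884). AT2G37130, second in level in the family in both libraries, had 295 FPKM in hdt1 and 487 FPKM in WT (0.607-fold, 0.590 to 0.624). All of these genes were picked out after their values were seen. Of them, AT1G49570, AT5G64100 and AT4G08780 reached a mean of 1 FPKM only through WT, and AT5G47000 only through hdt1. Among the peroxidases best known outside lignin, PRX34 had 207 FPKM in hdt1 and 210 FPKM in WT. PRXR1, the most abundant of the family, had 2648 FPKM in hdt1 and 2240 FPKM in WT, 1.18-fold (1.17 to 1.19).

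Synthesis and polymerisation were then set side by side. As sums, the 15 synthesis genes had 1801 FPKM in hdt1 and 1442 FPKM in WT, 1.25-fold (1.23 to 1.26). The 23 polymerisation genes had 214 FPKM in hdt1 and 120 FPKM in WT, 1.78-fold (1.71 to 1.85). The fold of polymerisation was thus 1.42 times that of synthesis (1.37 to 1.48) in these libraries, and the laccases and peroxidases differed in this. The laccase fold was 2.41 times the synthesis fold (2.26 to 2.56), and still 1.69 times (1.5 to 1.91) without LAC4. The peroxidase sum, 118 FPKM in hdt1 and 88.5 FPKM in WT, had a fold of 1.34 (1.27 to 1.41), only 1.07 times the synthesis fold (1.01 to 1.13). Directly compared, the laccase fold was 2.25 times the peroxidase fold (2.08 to 2.44). For every 100 FPKM of synthesis genes there were 5.29 FPKM of laccases in hdt1 and 2.2 FPKM in WT. The peroxidases came to 6.57 FPKM per 100 in hdt1 and 6.13 FPKM in WT.

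**Figure D4:**
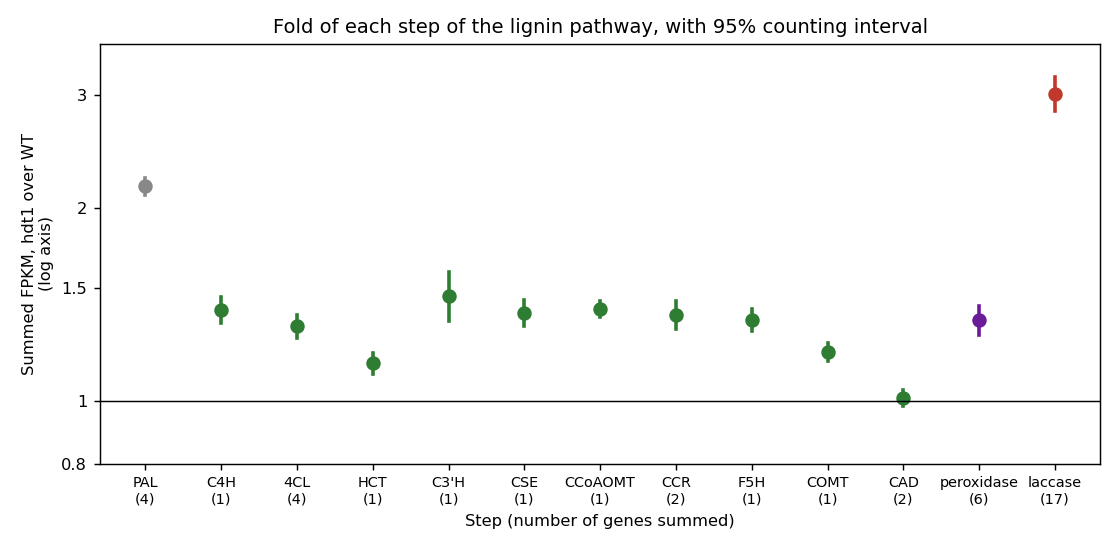
Fold of the summed FPKM of each pathway step, hdt1 over WT (log axis), with 95% counting intervals and the number of genes summed under each step, PAL shown in grey for orientation. The steps of monolignol synthesis and the peroxidases lie between 1.01 and 1.46, and the laccases stand at 3.01.

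Gene by gene, the contrast was less firm. The median log2 ratio was 0.43 for the 14 synthesis genes and 0.61 for the 10 polymerisation genes that reached a mean of 1 FPKM, a difference of -0.17, synthesis minus polymerisation. That difference turned to 0.16 when every gene with a read was counted and to 0.007 with 5 FPKM added in place of 1. Counting every gene with reads admits low genes, whose ratios lie near 0 on the log2(FPKM + 1) scale, and 13 of the 23 polymerisation genes, but only 1 of the 15 synthesis genes, had a mean under 1 FPKM. Adding 5 FPKM draws the ratios of the laccases with a few FPKM toward 0, LAC17 to 0.41. The laccase median stood 0.54 above the synthesis median and the peroxidase median 0.06 above it. The log2 ratio of all genes moved with gene length, with medians over 20 length bins between -0.20 and 0.19. Over 2692 genes as long as the 5 laccases the median was -3.86e-05, and over 1218 genes as long as the peroxidases it was -0.09. With the median of genes of like length taken off, the medians were 0.44 for synthesis, 0.96 for the laccases and 0.59 for the peroxidases.

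**Figure D5:**
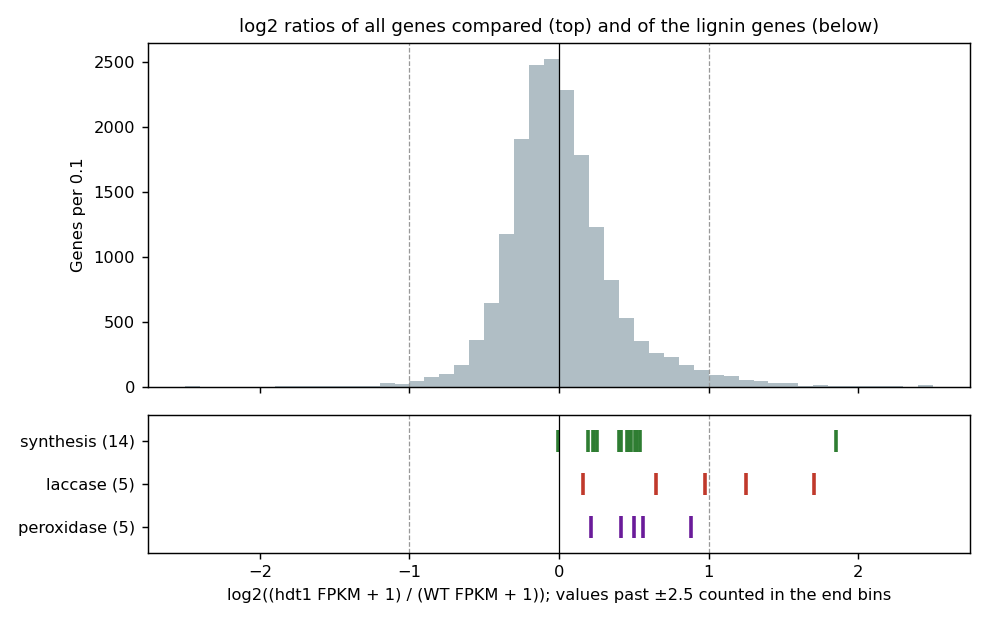
Number of genes per 0.1 of the log2 ratio of (FPKM + 1), hdt1 over WT, for all 17811 genes compared (top), and the same ratio of the 14 synthesis genes, 5 laccases and 5 peroxidases with a mean of at least 1 FPKM (ticks, below), with dashed lines at 2-fold. All ticks but that of CAD5 lie above 0, and CCR2, LAC4 and LAC12 lie past the 2-fold line.

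Markers of the cells that lignify were mostly higher in hdt1 too. The vessel proteases XCP1 and XCP2 were 2.39-fold (1.5 to 3.92) and 2.09-fold (1.78 to 2.46). The vessel regulator VND7 had 12 reads in hdt1 and 6 reads in WT, and its interval included 1 (1.88-fold, 0.654 to 6.12). These 3 xylem vessel markers had a summed level of 18.9 FPKM in hdt1 and 8.95 FPKM in WT. The fibre regulators NST1 and NST3 summed to 33.8 FPKM in hdt1 and 23.0 FPKM in WT. NST3 was 1.97-fold (1.68 to 2.31), and the interval of NST1 included 1 (1.08-fold, 0.941 to 1.24). The 4 phloem markers were all higher, 463 FPKM in hdt1 and 370 FPKM in WT in sum. Among them SEOR1 was 2.1-fold (1.9 to 2.33), close to the fold of XCP2. SUC2 was 1.33-fold, APL 1.25-fold and PP2-A1 1.18-fold. A fold near 2 was thus not confined to markers of cells that lignify. Of the 4 epidermis markers 1 was higher, with a sum of 207 FPKM in hdt1 and 213 FPKM in WT, and the 3 markers of photosynthetic cells were all lower, 7743 FPKM in hdt1 and 8926 FPKM in WT in sum. No marker was at 0 in either library. The part of these differences in the levels of the lignin genes was not tested.

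The cellulose genes of the same walls differed more than the synthesis genes. The 3 subunits of the secondary wall cellulose synthase were CESA7 at 3.59-fold (3.28 to 3.93), CESA4 at 2.65-fold (2.43 to 2.90) and CESA8 at 2.55-fold (2.30 to 2.84). With CTL2 and COBL4, which act in cellulose deposition, the sum was 339 FPKM in hdt1 and 144 FPKM in WT, 2.36-fold. Most of that sum was CTL2, with 252 FPKM in hdt1 and 110 FPKM in WT, 2.28-fold (2.19 to 2.38). The median log2 ratio of the 5 was 1.23 and 4 passed 2-fold. The sum of the laccases had a larger fold than that of the cellulose genes, and the sums of the peroxidases and of synthesis had smaller ones. The larger fold of the laccases rested on LAC4. Without it their sum was 2.11-fold (1.87 to 2.39), and the laccase median log2 ratio, 0.98, was below that of the cellulose genes.

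The gateway enzyme of the pathway stood apart from the steps it feeds. All 4 genes of phenylalanine ammonia-lyase, which makes cinnamate from phenylalanine, were higher in hdt1, and 2 passed 2-fold. PAL1 had 133 FPKM in hdt1 and 54.2 FPKM in WT, 2.46-fold (2.35 to 2.56). PAL2 had 58.5 FPKM in hdt1 and 26.6 FPKM in WT, 2.19-fold (2.06 to 2.33). As a step PAL summed to 251 FPKM in hdt1 and 116 FPKM in WT, 2.16-fold (2.1 to 2.23), and its fold was 1.73 times that of the synthesis genes downstream (1.68 to 1.79). The order by fold of the sums was therefore laccases, PAL, and then the remaining synthesis steps and the peroxidases. The place of the laccases before PAL rested on LAC4. Without LAC4 the laccase sum was 2.11-fold (1.87 to 2.39), and that interval spans the one of PAL.

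Genes that supply or drain the pathway went in different directions. Of the 6 genes of support, 5 were above 0, with a median log2 ratio of 0.43 and none past 2-fold. RBOHF, an NADPH oxidase of the kind that feeds wall peroxidases with peroxide, had 8.88 FPKM in hdt1 and 4.29 FPKM in WT, 2.07-fold (1.83 to 2.35) on the FPKM themselves. ABCG29, a transporter of p-coumaryl alcohol, had 18.7 FPKM in hdt1 and 10.6 FPKM in WT, 1.76-fold (1.63 to 1.90). Of the 7 genes of side branches to sinapate esters, hydroxycinnamic acids and glucosides, 4 reached a mean of 1 FPKM, 1 above 0 and 3 below, with a median of -0.16. REF1, the aldehyde dehydrogenase that turns the aldehydes of the pathway into ferulate and sinapate, had 46.7 FPKM in hdt1 and 60.4 FPKM in WT, 1.29-fold lower in hdt1 (1.22 to 1.37). SNG1, a sinapoyltransferase, had 99.9 FPKM in hdt1 and 108 FPKM in WT.

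The other members of the CAD family were mostly higher, 4 of the 5 with a mean of at least 1 FPKM. CAD3 had 7.42 FPKM in hdt1 and 3.75 FPKM in WT, 1.98-fold (1.53 to 2.56), and CAD6 had 20.6 FPKM in hdt1 and 12.2 FPKM in WT, 1.69-fold (1.47 to 1.94). CAD1 was the exception, with 17.5 FPKM in hdt1 and 22.7 FPKM in WT, 1.30-fold lower in hdt1 (1.15 to 1.46). None of them approached CAD5 in level.

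The MYB transcription factors that act on lignin genes were mixed. Of 8 activators, 7 reached a mean of 1 FPKM, 5 above 0 and 2 below, with a median log2 ratio of 0.19. MYB63, an activator of monolignol genes, was the only one past 2-fold, with 7.37 FPKM (189 reads) in hdt1 and 2.77 FPKM (67 reads) in WT, 2.66-fold (2.0 to 3.57). Its close relative MYB58 had 1.07 FPKM (29 reads) in hdt1 and 1.13 FPKM (29 reads) in WT. MYB20 was 1.32-fold (1.1 to 1.58) and MYB43 1.27-fold (1.09 to 1.49). Of 3 repressors, MYB4, known for repressing C4H, had 12.9 FPKM in hdt1 and 22.2 FPKM in WT, 1.73-fold lower in hdt1 (1.52 to 1.97). MYB32 and MYB7 had intervals that included 1.

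AC elements, the sequences that such MYB factors bind, were searched in the window from 250 bases before to 50 bases after each gene's start in RefSeq's TAIR10.1. The letters were ACCTACC (AC-I), ACCAACC (AC-II) and ACCTAAC (AC-III), on both strands, and no matches overlapped in the 38 windows. At least 1 was present in 14 of the 38 windows (36.8%), in 7 of 15 synthesis genes, 6 of 17 laccases and 1 of 6 peroxidases. Of all 27443 protein-coding nuclear genes 7.29% held one, and of those with a mean of at least 1 FPKM 7.3%. CCR2, LAC4, LAC12 and PRX64, with folds among the largest of the 38, held none. LAC10, with a fold of 3.47, held an AC-II match 145 bases before its start. The 250 bases before the start are printed for 3 members with a match and for LAC4 with none, 4CL2 and CYP98A3 with smaller folds and LAC17 and LAC4 with larger ones. Capitals mark the matches. In 4CL2 (chr3:7457405-7457654, minus strand) they are AC-II, beginning 140 and 31 bases before the start. In CYP98A3 (chr2:17060653-17060902, minus strand) the match is AC-II, 22 bases before it. In LAC17 (chr5:24167746-24167995, plus strand) it is AC-III, 61 bases before it. LAC4 is at chr2:15933994-15934243 (plus strand).
4CL2: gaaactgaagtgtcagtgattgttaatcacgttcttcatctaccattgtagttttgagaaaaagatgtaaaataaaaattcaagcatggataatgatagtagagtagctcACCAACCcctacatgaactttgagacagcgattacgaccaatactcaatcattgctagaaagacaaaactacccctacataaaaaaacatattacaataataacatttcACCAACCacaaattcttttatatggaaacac
CYP98A3: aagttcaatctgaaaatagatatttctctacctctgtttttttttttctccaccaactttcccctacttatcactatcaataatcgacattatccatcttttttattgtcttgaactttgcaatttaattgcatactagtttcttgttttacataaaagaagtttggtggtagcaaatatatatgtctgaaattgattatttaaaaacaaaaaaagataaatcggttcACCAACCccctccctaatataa
LAC17: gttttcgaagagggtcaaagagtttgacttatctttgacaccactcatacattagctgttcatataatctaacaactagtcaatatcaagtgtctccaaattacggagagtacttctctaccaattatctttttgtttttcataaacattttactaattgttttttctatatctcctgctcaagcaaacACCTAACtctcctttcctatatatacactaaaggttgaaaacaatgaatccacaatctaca
LAC4: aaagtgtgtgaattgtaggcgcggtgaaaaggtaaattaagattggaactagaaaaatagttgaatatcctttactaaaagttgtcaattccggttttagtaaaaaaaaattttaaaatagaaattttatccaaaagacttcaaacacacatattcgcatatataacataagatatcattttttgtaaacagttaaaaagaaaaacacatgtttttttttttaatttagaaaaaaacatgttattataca

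No match in the LAC4 window says only that these letters are not in it. HCT and 4CL2, with 2 matches each, had folds of 1.15 and 1.18, near the bottom of the synthesis genes, and 4CL3, also with 2, had few reads. In HCT the AC-I match begins 11 bases after the start. LAC17, with 1, had a fold of 2.84. A link between the matches and the folds was not tested.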

How the data were processed

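The authors deposited FPKM values for 1 hdt1 and 1 WT stem library in a single table, and the series' own design text says that there are no replicates. Per the submitters' processing notes, the tools were HTSeq 0.6.1, TopHat2 2.0.12 and Bowtie2 2.2.3. For the genome build, annotation and strand setting no source used here gives a name, and the gene length behind the values equalled RefSeq's exon length for only 3 of the 38 genes, so coordinates and sequences are RefSeq's (TAIR10.1), matched by locus. All 38 matched. The table's 67 features with no locus identifier were left out.

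Whole read numbers were recovered from the ratio of the FPKM values and the gene length they imply. The multiple was settled for 32 of the 34 members with reads, and for 2 (CCOAOMT1 and CAD4) the smallest of several was used. Summed over all genes, the reads come to 102.7% of the hdt1 total and 102.8% of the WT total, so some are too many. With the smallest possible reads the intervals of 8 members widen and none changes side of 1. On simulated data for 4182 genes both read numbers were recovered for 92.9%. In that simulation a minority of gene lengths differed from RefSeq's, all by the same small factor. In the real values most members differ, some by much more, so the rate does not measure recovery here. Folds of 1 gene carry exact Clopper-Pearson intervals and those of sums normal intervals on the log scale, all at 95%, for counting error only. Of the members, 10 overlap another annotated gene and 6 share a stretch of 50 bases with another gene's transcript, so their reads cannot be assigned with certainty.

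Log2 ratios used a pseudocount of 1 FPKM and took genes averaging at least 1 FPKM. Members and gene lists were chosen with earlier results of these data known. All 38 members are named, and of the lists any gene with a mean of at least 1 FPKM could be named, besides VND7 and the microRNA loci, which lie below it. The contrasts between steps, the peroxidase family by description, the promoter and microRNA searches and the length alternative were chosen after values were seen. Alternatives were other pseudocounts, scalings, filters and fold limits. Python 3.11.15, numpy 2.4.6, scipy 1.17.1, pandas 2.3.3 and matplotlib 3.10.9 were used.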

Additional observations from a re-analysis of the deposited data

How the results depend on the processing

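The median log2 ratio of the laccases, 0.98, became 0.41 with a pseudocount of 5 FPKM and 0.21 with no filter on low values. The difference of medians, synthesis minus polymerisation, was -0.17 and came to 0.00699 and 0.16 under the same changes. The pseudocount draws low genes toward 0 and the missing filter admits more of them, both by construction. The 3 members past 2-fold became 2 with a pseudocount of 5 FPKM (without LAC12, at 0.59) and with a minimum mean of 5 FPKM, and 4 with a pseudocount of 0.1 FPKM and under both scalings (with LAC17, at 1.43, 1.02 and 1.03). They became 6 at a 1.5-fold limit, which 7.04% of all genes passed, and 0 at a 4-fold limit, which 0.208% passed. In all, 42 recomputed counts, medians and differences of medians, the counts of 2 and 4 among them, kept their direction and stayed within a set limit. They cover these and the scaling, length and pseudocount 0.1 alternatives. For counts the limit was 1.5 times the count. For medians and their difference it came from the median half-width of the members' counting intervals. Of the recomputed values of single genes and step sums, 154 stayed within the counting interval and 22 moved beyond it. Among the members CAD5 took another sign under both scalings and LAC1, with 1 read per library, after centring. Those scalings put the median of all genes at 0.03 and 0.02, against -0.03 as deposited. No replicate could be left out. No paired analysis was possible because each genotype has 1 library. Members with fewer than 15 reads in all have intervals too wide to compare.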
